A study of Mus musculus with 6 samples.

Results

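The 10 genes Ucp1, Ucp3, Cox8b, Cox7a1, Chchd10, Cidea, Elovl3, Ppargc1a, Prdm16 and Dio2 of the brown and beige thermogenic program were read in epididymal white adipose tissue (eWAT), the visceral fat depot of male mice. They were taken by symbol and by no rule on their values, but earlier results of these data were known when the list was chosen. They are 10 of 19938 genes that the arrays measured with a probe set annotated to exactly 1 gene. Each gene is represented by its brightest such probe set, and only Ppargc1a had a second one. The study asked what the transcription cofactor LMO3 does to visceral fat during obesity. All animals were male C57BL6/J mice that received a high fat diet (HFD) from 6 weeks of age for 12 weeks, and all received a recombinant adeno-associated virus (rAAV) of the hybrid serotype Rec2 into eWAT. The control arrays carry the label rAAV-YFP, a vector for a fluorescent protein, and the experimental arrays the label rAAV-Lmo3. The treatment text of the same labels calls the control vector rAAV-LacZ, and the name in the sample titles is used here. Each group has 3 arrays, each from a pool of 2 mice, so that the p-values measure the spread between pools. The vectors drive their insert from a CMV enhancer and chicken β-actin promoter, which is not restricted to adipocytes, and the tissue was profiled whole. In such bulk RNA, fewer cells of a type and less RNA per cell cannot be told apart.

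Brown and beige adipocytes burn fuel to produce heat. UCP1 lets protons flow back across the inner mitochondrial membrane without making ATP, and the cells support it with dense mitochondria, respiratory chain subunits of their own isoforms and a steady supply of fatty acids. Cold and β-adrenergic signalling switch the program on through cyclic AMP, with PGC-1α (Ppargc1a) and PRDM16 among its regulators. Epididymal fat of mice is known as a depot that browns little.

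The arrays had similar median intensities of 123 to 127.5. In their correlation with the other arrays, rAAV-YFP 2 (mean r 0.988) and rAAV-Lmo3 1 (0.986) stood apart from the remaining 4 arrays (0.990 to 0.991). The only probe set of Lmo3 itself read 25, 24 and 24 under rAAV-YFP, against 24, 26 and 24 under rAAV-Lmo3. It therefore gave no check of which arrays carry the Lmo3 vector, and whether its probes lie in the delivered insert is not given in the sources used here. Group names below are those of the labels, and every direction rests on them. Adipocyte markers were bright on all 6 arrays, with Adipoq, the adipokine adiponectin, between 8014 and 10809. Of the markers of classical brown adipocytes, Zic1 (28 to 31) and Lhx8 (72 to 86) were dim. Dim here means a mean over the 6 arrays below an intensity of 114, the limit that the darkest 40% of genes do not reach. Ebf2, another such marker, was above this limit, at 310, 386 and 378 under rAAV-YFP, against 544, 331 and 323 under rAAV-Lmo3.

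All 10 thermogenic genes had a higher mean log2 intensity on the rAAV-Lmo3 than on the rAAV-YFP arrays. The differences ranged from 0.07 for Prdm16 to 1.31 for Cox8b, with a median of 0.43 over all 10. Over all 11963 genes bright enough to be tested the median difference was 0.00076, and 50.3% of them lay above 0. The groups did not overlap for 6 genes, namely Ucp1, Ucp3, Cox8b, Chchd10, Cidea and Prdm16, all higher under rAAV-Lmo3, against a background of 3.41% of all genes separated in this direction. The other 4 genes overlapped. In the limma fit 6 of the 10 genes were tested, and Ucp3, Cox8b and Chchd10 were higher at an unadjusted p under 0.05, against a background of 2.27% of genes higher at that level. None of the 6 passed after Benjamini-Hochberg adjustment over all tested genes (limma, background 0%), and neither did any other gene, with a smallest adjusted p of 0.669. The tested members are those above the limit for dim genes, while Ucp1, Cidea, Elovl3 and Dio2 stayed below it.

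**Figure D1:**
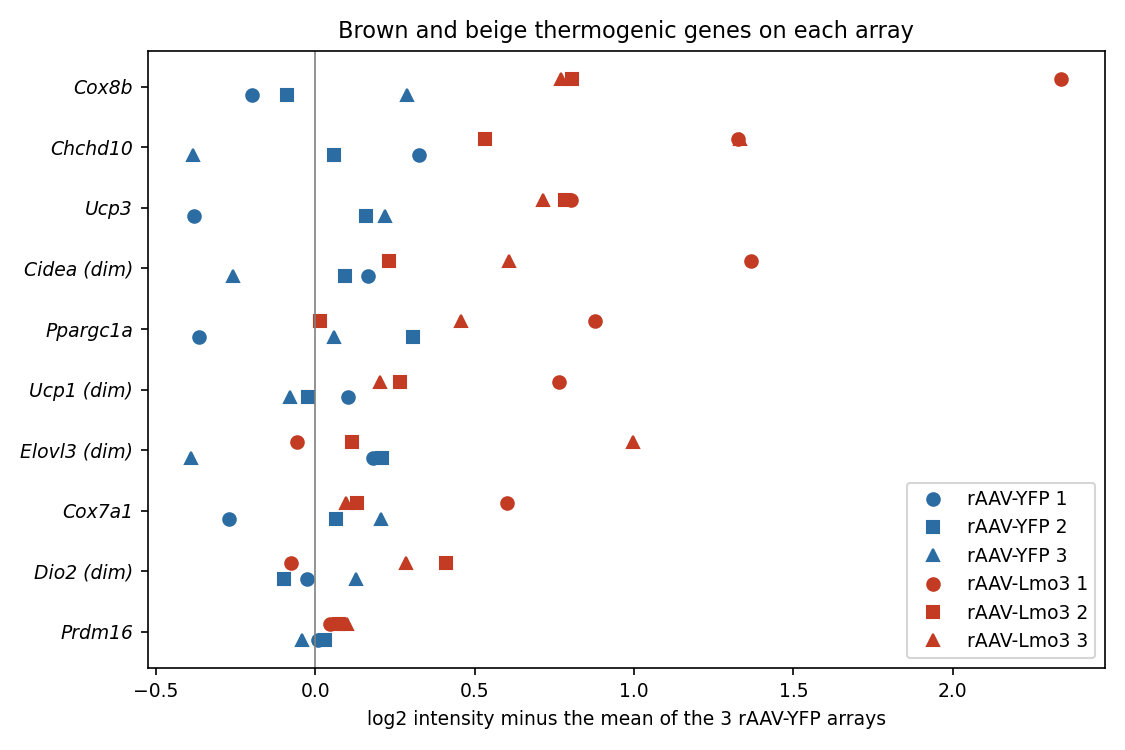
Log2 intensity of each thermogenic gene on each array, with the mean of the 3 rAAV-YFP arrays set to 0 (x axis, log2 units). Blue symbols are the rAAV-YFP and red symbols the rAAV-Lmo3 arrays, circle, square and triangle being arrays 1, 2 and 3. The rAAV-Lmo3 1 circle lies farthest right for Cox8b at 2.34 and for Cidea at 1.37, whereas the 3 red Ucp3 symbols lie together between 0.71 and 0.80.

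Of the uncoupling proteins among the members, Ucp3 separated the groups most evenly. UCP3 is a mitochondrial carrier of muscle and brown fat that is tied to fatty acid handling and does not take the place of UCP1 in heat production. Its intensity was 225, 327 and 341 under rAAV-YFP, against 511, 504 and 480 under rAAV-Lmo3. The 3 rAAV-Lmo3 values lay close together and all above the highest control value. The difference was 0.77 ± 0.16 (log2, SE, n = 3 arrays a group), a 1.70-fold higher level, with an unadjusted p of 0.00248, an adjusted p of 0.970 and an exact permutation p of 0.1, the smallest that 3 against 3 arrays allow. It was 0.75 without rAAV-Lmo3 1, 0.83 without both arrays that stood apart and 0.58 without rAAV-YFP 1, the lowest control array. The SD was 0.33 within the rAAV-YFP and 0.05 within the rAAV-Lmo3 group, so the evenness is that of the rAAV-Lmo3 arrays. A larger difference in the higher direction was found for 27 of the tested genes.

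Ucp1, the gene that defines the brown and beige adipocyte, was dim. It read 84, 77 and 74 under rAAV-YFP, against 133, 94 and 90 under rAAV-Lmo3. The groups did not overlap, but only rAAV-Lmo3 1 lay above the dim limit. The difference of 0.41 ± 0.16 (1.33-fold, exact permutation p 0.1) was 0.23 without that array. In a fit that kept dim genes its unadjusted p was 0.0357 and its adjusted p 0.983. The 250 bases before the transcription start of both genes are shown. They are the reference promoters of the program's defining gene and of the other uncoupling protein gene among the members. They come from RefSeq on GRCm38.p6, at chr8:83290098-83290347 on the plus strand for Ucp1 and at chr7:100472741-100472990 on the plus strand for Ucp3, and read from 5′ to 3′ in the direction of the gene. Capitals mark AGGTCA, a motif of nuclear receptors that PPARs bind as a pair with 1 base between, on either strand. They also mark TGACG, the core of the cyclic AMP response element, on either strand.
Ucp1: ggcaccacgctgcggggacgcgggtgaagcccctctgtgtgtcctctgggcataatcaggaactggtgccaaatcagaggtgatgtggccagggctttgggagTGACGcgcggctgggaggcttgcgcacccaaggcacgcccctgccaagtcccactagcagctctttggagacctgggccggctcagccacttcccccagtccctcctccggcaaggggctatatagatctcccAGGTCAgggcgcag
Ucp3: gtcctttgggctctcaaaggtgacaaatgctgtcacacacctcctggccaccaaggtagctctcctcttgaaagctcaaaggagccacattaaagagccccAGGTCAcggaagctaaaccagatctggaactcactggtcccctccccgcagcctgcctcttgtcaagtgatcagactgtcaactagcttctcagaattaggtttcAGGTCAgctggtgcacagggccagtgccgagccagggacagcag

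The members Cox8b, Chchd10 and Cox7a1 encode mitochondrial proteins of the respiratory chain or the space around it. Cox8b encodes the isoform of cytochrome c oxidase subunit VIII found in heart, muscle and brown fat, and it showed the largest difference of the 10 genes. Its intensity was 175, 189 and 245 under rAAV-YFP, against 1017, 351 and 343 under rAAV-Lmo3. All 3 rAAV-Lmo3 values exceeded every control value, but rAAV-Lmo3 1 lay far above arrays 2 and 3. The difference was 1.31 ± 0.42 (2.47-fold, limma unadjusted p 0.0181, adjusted p 0.970, exact permutation p 0.1). It was 0.79 without rAAV-Lmo3 1 and 0.74 without both arrays that stood apart, and the SD within the rAAV-Lmo3 group was 0.90 against 0.25 within the rAAV-YFP group. Its unadjusted p no longer lay under 0.05 when rAAV-YFP 1 or rAAV-YFP 2 was left out. Only Snord58b (1.33) and Snord61 (1.32), which encode small nucleolar RNAs, had a larger difference in the higher direction among the tested genes.

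Chchd10 encodes a small protein of the mitochondrial intermembrane space linked to the organisation of the cristae. It read 833, 693 and 510 under rAAV-YFP, against 1668, 962 and 1675 under rAAV-Lmo3. Arrays 1 and 3 of the rAAV-Lmo3 group were alike and high, array 2 was lower, and the groups did not overlap. The difference was 1.06 ± 0.27 (2.09-fold, limma unadjusted p 0.00592, adjusted p 0.970, exact permutation p 0.1), and it was 0.93 without rAAV-Lmo3 1. Left out in turn, the 6 arrays gave a range of 0.87 to 1.33, and 9 tested genes had a larger difference in the higher direction.

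Cox7a1, the muscle and brown fat isoform of subunit VIIa of the same oxidase, overlapped between the groups. Its intensity was 169, 213 and 235 under rAAV-YFP, against 309, 223 and 218 under rAAV-Lmo3. Apart from rAAV-Lmo3 1, the experimental values lay within the control range. The difference of 0.28 ± 0.18 (1.21-fold, limma unadjusted p 0.169, exact permutation p 0.4) was 0.11 without rAAV-Lmo3 1. The promoters of Cox8b and Chchd10, the 2 members with the largest differences, are set side by side with the same capitals. The Cox8b window lies at chr7:140900447-140900696 on the minus strand and the Chchd10 window at chr10:75932880-75933129 on the plus strand (GRCm38.p6, RefSeq).
Cox8b: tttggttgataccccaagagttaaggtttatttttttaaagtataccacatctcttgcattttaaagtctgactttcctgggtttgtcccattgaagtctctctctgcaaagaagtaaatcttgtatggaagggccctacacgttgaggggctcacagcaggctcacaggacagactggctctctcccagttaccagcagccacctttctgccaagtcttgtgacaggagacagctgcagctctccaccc
Chchd10: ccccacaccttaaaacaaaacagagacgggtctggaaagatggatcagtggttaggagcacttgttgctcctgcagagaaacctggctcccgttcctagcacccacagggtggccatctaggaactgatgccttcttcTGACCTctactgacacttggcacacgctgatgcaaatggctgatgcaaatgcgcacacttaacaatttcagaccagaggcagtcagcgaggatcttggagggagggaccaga

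Of the 10 members, 8 were matched to a RefSeq promoter, and both strands of the 250 bases were searched. AGGTCA was found in Ucp3, Ucp1 and Chchd10, and in 14% of all 32851 promoters of this length. In Ucp3 it starts 149 and 44 bases before the transcription start, in Ucp1 14 bases before it, and in Chchd10 it lies 112 to 107 bases before it on the opposite strand. The pair of AGGTCA with 1 base between was in none of the 8 and in 0.0335% of all promoters, and TCAAGGTCA was in none of the 8 and in 0.387% of all. TGACG was found in Ppargc1a, Ucp1 and Dio2 and in 17.8% of all promoters. Only Dio2 held the full palindrome TGACGTCA, which contains TGACG on both strands, 95 to 88 bases before its start, and 1.55% of all promoters held it. CCAAT occurred in Prdm16 and Cox7a1 (33.8% of all promoters) and TATAAA in Dio2 (12.4%). The Cox8b window held none of these 7 motifs and 1 CpG, at 47.2% GC, while Ucp1 had 64.8% GC and Prdm16 62.4%, against a median of 52.4% over all promoters. These are matches of letters in a short window and describe no binding.

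The members that act on lipids were both dim. CIDEA sits on lipid droplets and promotes their fusion, and its transcript is a classical marker of brown fat. It read 83, 79 and 62 under rAAV-YFP, against 191, 87 and 113 under rAAV-Lmo3. The groups did not overlap, although rAAV-Lmo3 2 exceeded the highest control value by only 4 intensity units. The difference was 0.74 ± 0.28 (1.67-fold, exact permutation p 0.1) and 0.42 without rAAV-Lmo3 1. With dim genes kept in the fit its unadjusted p was 0.0382. ELOVL3 elongates saturated and monounsaturated fatty acids and is induced in brown fat by cold. Its intensities of 46, 47 and 31 under rAAV-YFP, against 39, 44 and 81 under rAAV-Lmo3, overlapped. Only rAAV-Lmo3 3 lay above the controls, and the difference of 0.35 ± 0.30 (exact permutation p 0.6) shrank to 0.03 when that array was left out.

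**Figure D2:**
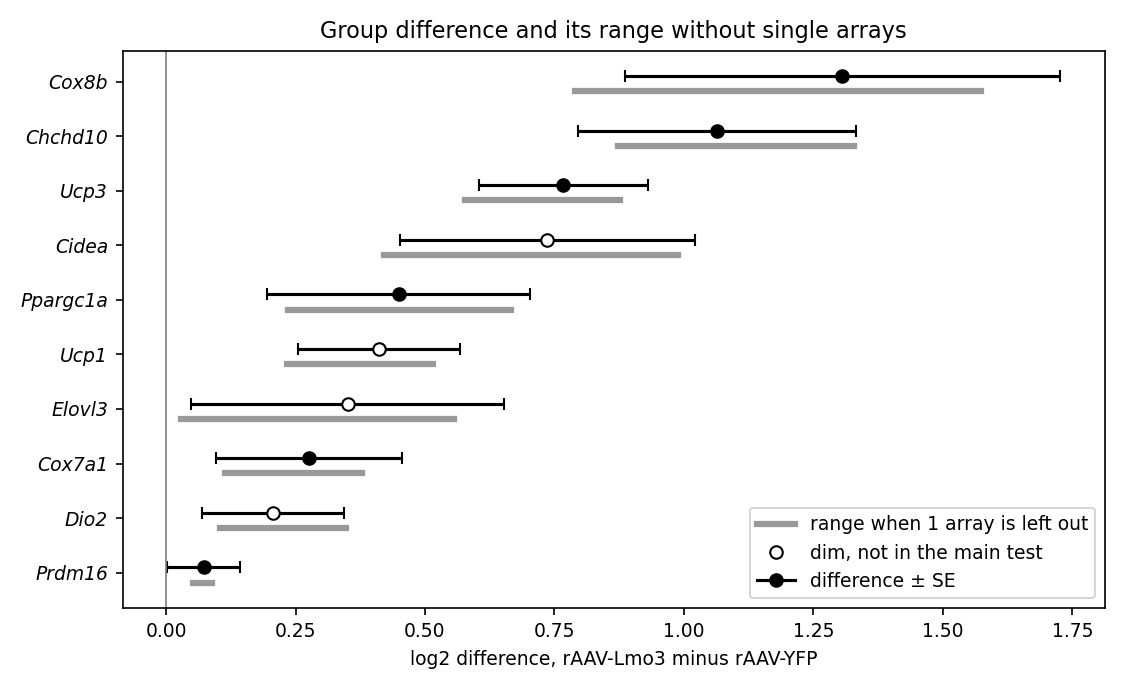
Difference between the groups for each thermogenic gene (x axis, log2, rAAV-Lmo3 minus rAAV-YFP). Circles with bars are the difference ± SE, open for genes too dim for the test, and grey bars span the values obtained when each of the 6 arrays was left out in turn. All grey bars lie above 0, the lowest end being 0.03 for Elovl3, and the Cox8b bar runs from 0.79 to 1.57.

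Of the transcriptional regulators, neither reached an unadjusted p under 0.05. PGC-1α coactivates PPARs and estrogen-related receptors on mitochondrial genes. Its transcript Ppargc1a read 172, 274 and 231 under rAAV-YFP, against 407, 224 and 304 under rAAV-Lmo3. Arrays 1 and 3 of the rAAV-Lmo3 group exceeded every control value, while array 2 lay within the control range. The difference was 0.45 ± 0.25 (1.37-fold, limma unadjusted p 0.122, exact permutation p 0.3) and it was 0.24 without rAAV-Lmo3 1 and 0.27 without rAAV-YFP 1. A second, dimmer probe set of the gene read 25, 35 and 30 against 70, 40 and 44, without overlap (difference 0.74, exact permutation p 0.1). The probe sets thus disagree on whether the groups overlap.

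PRDM16 drives the brown and beige identity of adipocytes together with its partners. Prdm16 read 201, 204 and 194 under rAAV-YFP, against 206, 210 and 214 under rAAV-Lmo3. The groups did not overlap, but the values differed by few intensity units, and the difference of 0.07 ± 0.07 (limma unadjusted p 0.338) is the smallest of the 10. The non-overlap rests on a narrow spread (SD 0.04 and 0.03). Dio2 encodes the deiodinase that makes active thyroid hormone within brown fat. Its intensities of 62, 59 and 69 under rAAV-YFP, against 60, 84 and 77 under rAAV-Lmo3, overlapped, with rAAV-Lmo3 1 inside the control range, and the difference was 0.21 ± 0.14 (exact permutation p 0.3), with values from 0.11 without rAAV-Lmo3 2 to 0.35 without rAAV-Lmo3 1.

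The rAAV-Lmo3 arrays were not alike across the 10 genes. The highest intensity was on rAAV-Lmo3 1 for 6 genes, on rAAV-Lmo3 3 for 3 and on rAAV-Lmo3 2 for 1. Over all tested genes, 25.5% were highest on rAAV-Lmo3 1. Ucp3 stood apart from the other high members in that its 3 arrays exceeded the control mean by 0.80, 0.78 and 0.71. Cox8b exceeded it by 2.34, 0.81 and 0.77 and Chchd10 by 1.33, 0.53 and 1.33. All 10 differences stayed above 0 without rAAV-Lmo3 1, with a median of 0.38.

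Isoforms and relatives that are not restricted to brown fat give a comparison within each array. In all, 5 pairs could be formed. Ucp1, Ucp3 and Chchd10 had none, since their relatives Ucp2 and Chchd2 had no probe set annotated to exactly 1 gene. The value is the difference between the groups in the log2 ratio of member to relative. Cox8b was higher relative to Cox8a, the isoform found in most tissues, by 1.25 ± 0.42 (exact permutation p 0.1, adjusted over the 5 pairs 0.5). The ratio did not overlap between the groups, and the value was 0.88 without rAAV-Lmo3 1. For Cox7a1 relative to Cox7a2 the value was -0.00 ± 0.13 (exact permutation p 1), and Cox7a2 itself read 678, 703 and 725 against 1017, 746 and 810 without overlap. For Cidea relative to Cidec, the lipid droplet protein of white adipocytes, the value was 0.70 ± 0.37 (exact permutation p 0.2). It was 0.51 ± 0.46 for Elovl3 relative to Elovl6 and 0.24 ± 0.32 for Ppargc1a relative to Ppargc1b (exact permutation p 0.4 for each), and the ratios of these 3 pairs overlapped. Without rAAV-Lmo3 1 the values were 0.41 for the Cidea pair, 0.82 for the Elovl3 pair and 0.04 for the Ppargc1a pair. In the whole list of relatives, 6 of 12 tested genes lay above and 6 below 0 (median 0.01).

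Other genes of the program were counted from lists. In a list of further brown adipocyte genes, 8 of the 9 tested members lay above 0 (median difference 0.12), and 1 was higher at an unadjusted p under 0.05, against the background of 2.27%. That gene, Slc36a2, a proton-coupled amino acid transporter used as an adipocyte surface marker, read 1207, 1102 and 1626 under rAAV-YFP, against 1746, 2621 and 2565 under rAAV-Lmo3 (0.81 ± 0.21, limma unadjusted p 0.00632, adjusted p 0.970). Unlike Cox8b, it was lowest on rAAV-Lmo3 1 within its group. Of 12 beige adipocyte markers tested, 8 lay above and 4 below 0 (median 0.05, and 0.00 without rAAV-Lmo3 1). Among them P2rx5, a purinergic receptor used as a surface marker of brown and beige adipocytes, read 133, 132 and 132 against 164, 170 and 193 (0.41 ± 0.09, limma unadjusted p 0.00262, adjusted p 0.970), and Tmem26 was dim. Sp100 of the same list separated the groups in the other direction (1105, 1127 and 1035 against 1028, 972 and 1012, exact permutation p 0.1). For Tbx1, Tnfrsf9 and Cited1, also of this list, the groups overlapped, with differences of 0.05, 0.06 and -0.01.

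Lists of activators and repressors of the program had medians near 0. Of 26 tested activators, 14 lay above and 12 below 0 (median 0.02, and -0.03 without both arrays that stood apart), and none had an unadjusted p under 0.05 by limma. The closest was Ppargc1b, a relative of PGC-1α (0.21 ± 0.09, unadjusted p 0.0529), while Pparg, the master regulator of adipocytes, overlapped between the groups (1968, 2946 and 2338 against 3021, 2052 and 1877). Of 21 tested repressors, 7 lay above and 14 below 0 (median -0.04), and 3 were lower at an unadjusted p under 0.05, against 2.4% of all tested genes. Tle3, a corepressor that opposes PRDM16, read 769, 862 and 655 under rAAV-YFP, against 635, 600 and 537 under rAAV-Lmo3 (-0.36 ± 0.12, unadjusted p 0.0237). The others were Foxo1, a transcription factor restrained by insulin (-0.30 ± 0.12), and Ncoa2, a nuclear receptor coactivator that favours fat storage (-0.21 ± 0.08). None of these 3 passed after adjustment (limma, adjusted p 0.970 for each). The widest differences above 0 in the list were those of Atf3 (0.22 ± 0.38), Twist1 (0.19 ± 0.10) and Nr1h3 (0.19 ± 0.11), all with overlap.

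Adrenergic and cyclic AMP signalling, the usual trigger of the program, was split evenly, with 9 of 18 tested genes above and 9 below 0 (median 0.01), and none at an unadjusted p under 0.05 by limma. Rgs2, a G protein regulator, had the widest difference there (0.51 ± 0.42, and 0.10 without rAAV-YFP 2). Of 13 tested genes of energy use without UCP1, such as creatine and calcium cycling, 5 lay above and 8 below 0 (median -0.03). Slc25a5, an ADP/ATP carrier, was higher at an unadjusted p of 0.0342 (0.37 ± 0.14, and 0.23 without rAAV-YFP 2). For Ckb, the creatine kinase of the creatine cycle, the difference was 0.09 ± 0.20 and turned to -0.05 without rAAV-YFP 2, and for Atp2a2, a calcium pump, it was -0.03 ± 0.07.

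**Figure D3:**
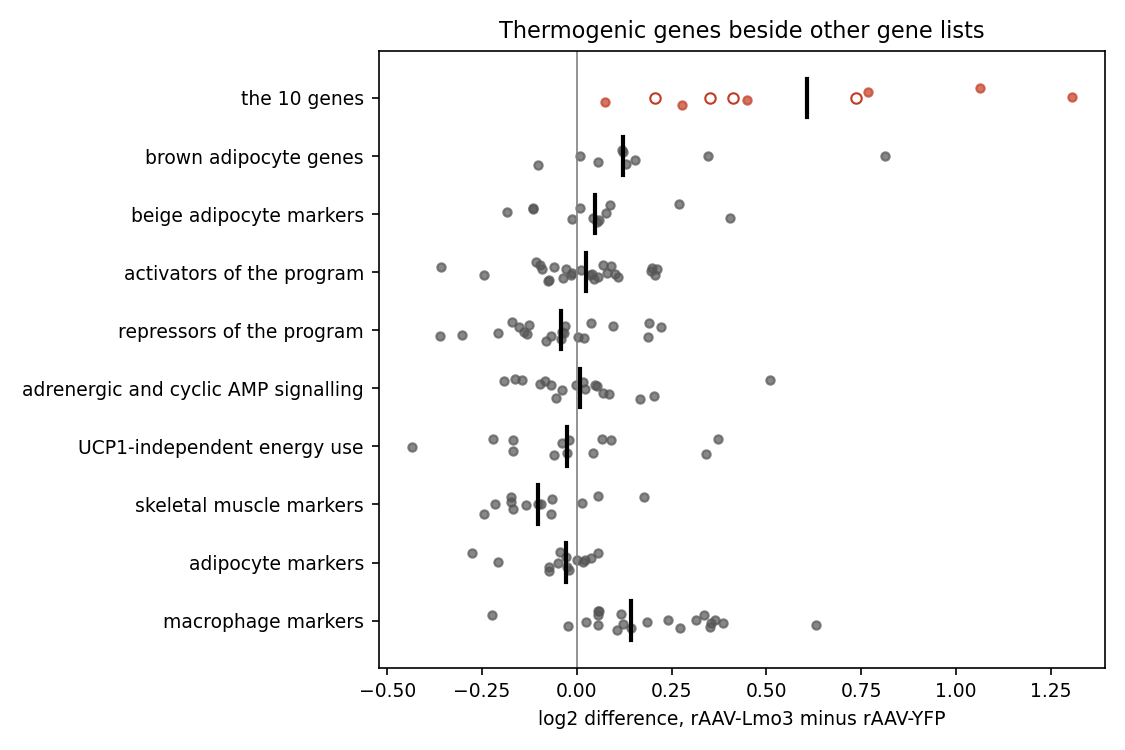
Difference between the groups (x axis, log2, rAAV-Lmo3 minus rAAV-YFP) of every tested gene in each list, 1 dot a gene, with a black bar at the list's median over tested genes. The 10 thermogenic genes are in red, with open circles for the 4 dim genes, which the bar at 0.61 leaves out. The medians of the other lists shown lie between -0.10 and 0.14.

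Skeletal muscle also expresses Ucp3, Cox8b, Cox7a1 and Chchd10, so its markers were read beside them. Of the 23 muscle markers 13 were tested, 3 above and 10 below 0 (median -0.10), and their summed intensity ranged from 3254 to 5043 on the rAAV-YFP and from 3238 to 4467 on the rAAV-Lmo3 arrays. The muscle median was 0.15 without rAAV-YFP 2, so its direction rests on that array, and -0.04 without both arrays that stood apart. The sum was highest on rAAV-YFP 2 (5043), followed by rAAV-Lmo3 1 (4467), the arrays that stood apart. The defining fast fibre myosin Myh4 was dim on average but read 229 on rAAV-YFP 2 and 226 on rAAV-Lmo3 1, against 54 to 92 on the other 4 arrays. On rAAV-YFP 2 Cox8b read 189 and on rAAV-Lmo3 1 it read 1017. Without both arrays the differences of Cox8b, Chchd10 and Ucp3 were 0.74, 0.96 and 0.83. The part of muscle RNA in the values of these genes was not tested.

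Markers of other cells also varied between single arrays. Of 21 macrophage markers, 19 lay above 0 (median 0.14), but the median was -0.09 without rAAV-YFP 2, 0.45 without rAAV-Lmo3 1 and 0.50 without rAAV-YFP 1. Their sum ranged from 37859 to 72345 on the rAAV-YFP and from 45154 to 72087 on the rAAV-Lmo3 arrays, and within the rAAV-Lmo3 group it was lowest on array 1. Adipocyte markers had a sum of 95609 to 112018 on the rAAV-YFP and 92445 to 110699 on the rAAV-Lmo3 arrays, with 4 of 14 above 0 (median -0.03, and 0.04 without rAAV-YFP 2). All 8 tested mesothelial markers and 10 of 12 endothelial markers lay below 0 (medians -0.33 and -0.14), as did 9 of 11 markers of white and visceral fat (median -0.14). These medians depended on single arrays. The mesothelial one was -0.02 without rAAV-YFP 3, and the endothelial one was -0.02 without rAAV-YFP 2. That of white and visceral fat was -0.05 without rAAV-YFP 2 and also without rAAV-Lmo3 2, but -0.20 without both arrays that stood apart. Nnat was lower in the last list at an unadjusted p under 0.05 (3910, 4771 and 3979 against 3747, 2932 and 2835, limma p 0.0205), and Esam in the endothelial list (-0.33 ± 0.13). Of the 14 epididymis and testis genes on the arrays 3 were bright enough to test, and the list's sum overlapped (1084 to 1849 against 986 to 1989). The part of these cells in the differences of the 10 genes was not tested.

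For each tested member that varied enough over the arrays, the genes with the most similar profile over the 6 arrays were found by the root mean square (RMS) distance of their centred log2 values. Ucp3 lay nearest to Agpat2, an enzyme of triglyceride synthesis (RMS 0.104), and Slc25a1, the mitochondrial citrate carrier (0.131). Chchd10 lay nearest to Ephx2 (0.217) and Mgst2 (0.230), Cox7a1 to Glb1l2 (0.0395) and Bcs1l (0.0405), and Ppargc1a to Gm5617 (0.0912) and Snord82 (0.0929). The nearest profiles to Cox8b were the small nucleolar RNA genes Snord104 (0.197) and Snora31 (0.327). Snord104 read 900, 993 and 1618 under rAAV-YFP, against 5622, 1480 and 1640 under rAAV-Lmo3, with the same high value on rAAV-Lmo3 1 as Cox8b.

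After these profiles were seen, all 42 tested genes of small nucleolar RNAs were counted. Of them 42 lay above 0, with a median difference of 0.49, and 0.31 without rAAV-Lmo3 1. They were highest on rAAV-Lmo3 1 in 66.7% of cases. Relative to the control mean, their median was 0.77, 0.29 and 0.38 on the rAAV-Lmo3 arrays and -0.28, -0.18 and 0.38 on the rAAV-YFP arrays, so that the control array rAAV-YFP 3 was as high as rAAV-Lmo3 3 and higher than rAAV-Lmo3 2. Such short RNAs depend on how RNA was isolated and on its quality, and their median difference of 0.49 stands beside the median of 0.43 of the 10 thermogenic genes. The part of RNA quality in the results above was not tested.

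**Figure D4:**
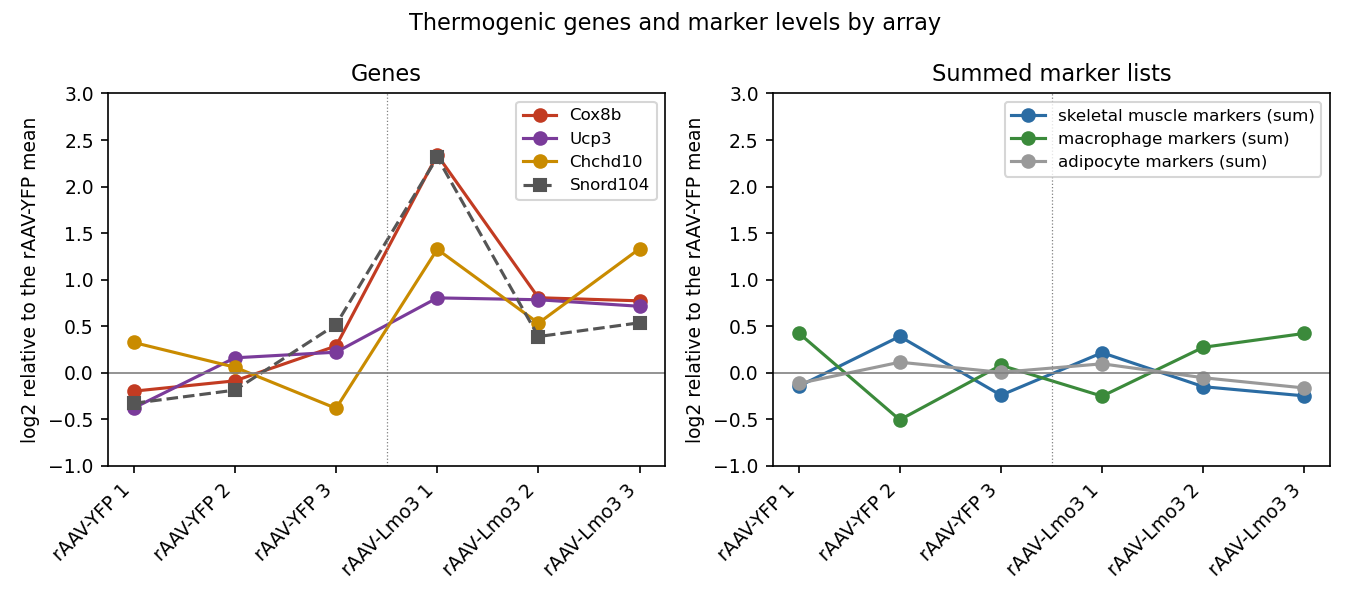
Log2 level on each array relative to the rAAV-YFP mean (y axis), on the left for Cox8b, Ucp3, Chchd10 and the small nucleolar RNA gene Snord104, and on the right for the summed intensities of muscle, macrophage and adipocyte markers. Lines join the points of 1 gene or list and carry no order of the arrays. Cox8b and Snord104 share a high value on rAAV-Lmo3 1, whereas Ucp3 is at 0.80, 0.78 and 0.71 on the 3 rAAV-Lmo3 arrays.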

How the data were processed

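Total RNA of eWAT, amplified and biotin-labelled, was hybridised to 6 Affymetrix arrays, 3 per vector, with group and number as the sample titles give them. The authors obtained the deposited intensity values with RMA, which corrects background, normalizes quantiles and fits a median polish to each probe set, in Affymetrix Expression Console 1.1, and the values are linear, rounded to whole numbers. Rounding is coarse for dim genes, and precision is set by the number of arrays. Of 35556 probe sets, 21789 had exactly 1 gene symbol, 1621 had several and 12146 had none. A genome build for the probe sets is not given in the sources used here.

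Here log2 was taken with no pseudocount, the brightest probe set of each gene was kept, the dimmest 40% of genes (mean log2 below 6.83) were left out, and 11963 genes entered a two-sided moderated test (limma 3.58.1 under R 4.3.3, lmFit followed by eBayes) with Benjamini-Hochberg adjustment over all of them and a threshold of 0.05. An SE is that of the limma difference, taken for dim genes from a fit that kept all 19938 genes, and for pairs that of the difference between group means. Single values were compared by an exact two-sided permutation test. The fit was tested on simulated data. Alternatives were other scalings, array weights, another prior, a replicate block, other filters, the mean over probe sets, the methods' t-test and leaving out arrays.

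The 15 gene lists, the 10 genes being one of them, were chosen with earlier results of these data known. Named genes are the members, their relatives, up to 3 genes of each list with the smallest p, those with p under 0.05 and no overlap, the brightest markers and the 2 nearest profiles. Others, among them Zic1, Lhx8, Ebf2, Pparg, Ckb, Atp2a2, Tmem26, Tbx1, Tnfrsf9, Cited1, Atf3, Twist1, Nr1h3 and Myh4, were named after their values were seen. Promoter sequences are those of RefSeq on GRCm38.p6.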

Additional observations from a re-analysis of the deposited data

How the results depend on the processing

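The differences of the thermogenic genes were recomputed under 16 alternative settings. Of 157 values, 100 changed and all of these kept their direction, while the rest came from settings that leave the difference itself as it is, such as another prior or the replicate block. Cox7a1 and Prdm16 had no value with the dimmest 60% left out, nor Ppargc1a with the mean over probe sets, since they were then too dim. None of these fits, by limma or by the methods' t-test, called a gene after adjustment, the smallest adjusted p being 0.064 without both arrays that stood apart, an alternative chosen after the data were seen. With no filter on dim genes, 5 instead of 3 thermogenic genes had an unadjusted p under 0.05, since Ucp1 and Cidea then entered the test. The count was 2 by the methods' t-test and without rAAV-YFP replicate 1 or rAAV-YFP replicate 2, each time without Cox8b, and 4 without rAAV-Lmo3 replicate 2, where Ppargc1a joined. The median of the 10 genes ranged from 0.38 without rAAV-Lmo3 replicate 1 to 0.58 without rAAV-Lmo3 replicate 2. With median-centred arrays the genes at an unadjusted p under 0.05 split into 324 higher and 227 lower, in place of 271 and 287. With the replicate block the count of thermogenic genes was 3. The deviations of same-numbered arrays from their group means correlated at -0.55, -0.40 and 0.26, and those of differently numbered arrays at -0.71 to 0.68. With 3 arrays a group, these correlations cannot show whether same-numbered arrays were handled together. Of 140 list medians that a setting changed, 21 turned in sign.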
